A study of Homo sapiens with 2 samples.

Results

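The mRNAs of 10 subunits of the SWI/SNF chromatin remodeling complex were examined among the RNAs co-precipitated with LRPPRC. The 10 genes, SMARCA4, SMARCA2, SMARCB1, SMARCC1, SMARCC2, SMARCD1, SMARCE1, ARID1A, ARID1B and PBRM1, were taken by name, and each had 1 row among the 16802 named rows and 21262 rows in all. The source was RNA immunoprecipitation sequencing (RIP-seq) with an anti-LRPPRC antibody in lysates of A549, a lung adenocarcinoma cell line labelled epithelial and WT, without any further treatment. This 1 condition was measured in 2 libraries, called replicates 1 and 2. The sources used here differ on whether these are technical or biological replicates, so the spread between them may be technical only. Levels are given as FPKM, fragments scaled to transcript length and to the mapped fragments of a library, and describe the precipitate. They were not divided by the level in the cell, because neither input nor IgG libraries were analysed here.

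SWI/SNF complexes use ATP to move or evict nucleosomes and thereby open promoters and enhancers. Each complex holds 1 of the alternative ATPases SMARCA4 (BRG1) and SMARCA2 (BRM). In the canonical BAF and PBAF forms the scaffold holds SMARCC, SMARCD, SMARCB1 and SMARCE1 subunits. Further subunits set the form of the complex, with ARID1A or ARID1B in canonical BAF, PBRM1 with ARID2 in PBAF, and BRD9 in noncanonical BAF (ncBAF). A549 cells are known to carry a truncating mutation of SMARCA4 and to lack the full-length protein, which leaves SMARCA2 as the ATPase of their complexes. LRPPRC belongs to the pentatricopeptide repeat proteins and is best known for keeping mitochondrial mRNAs stable and polyadenylated, and its loss of function causes a form of Leigh syndrome.

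The mRNA of SMARCA4 was among the higher ones of the 10 in LRPPRC RIP, whereas that of its paralog SMARCA2 was among the lowest. SMARCA4 had 65.6 FPKM in replicate 1 and 66.0 FPKM in replicate 2, with a mean of 65.8 ± 0.27 (SD, n = 2). SMARCA2 had 6.95 and 7.18 FPKM, with a mean of 7.07 ± 0.168 (SD, n = 2). The libraries of the genes did not overlap. The ratio of SMARCA4 to SMARCA2 was 9.44 in replicate 1 and 9.18 in replicate 2, or 3.22 ± 0.03 on the log2 scale (SD, n = 2), so SMARCA4 made up 90.4% and 90.2% of the FPKM of the ATPase pair. Among the 10441 named genes that reached FPKM 1 in each library, called background genes here, SMARCA4 ranked 504 and SMARCA2 ranked 5112. These values cover the gene as a whole and do not show whether its transcripts carry the mutation, nor how much protein is made. SMARCA4 spans 10960932 to 11079426 on chromosome 19 (GRCh38, plus strand), with 35 exons and 5577 bases in the canonical transcript. SMARCA2 spans 1980290 to 2193624 on chromosome 9 (plus strand), with 34 exons and 5748 bases. GENCODE 44 lists 36 protein-coding transcripts of SMARCA4, with a median of 4978 bases, and 47 of SMARCA2, of 100 to 7061 bases with a median of 939. FPKM divides by length, and the ratio under other transcript models was not tested.

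The coding sequences of the ATPases are alike, which bears on whether reads of one can be told from reads of the other. They shared 74.2% of 4674 aligned bases, and the longest run of identical bases in their transcripts was 26 bases. The sequences below show this run with 60 bases on each side, from 1300 to 1445 of the SMARCA4 coding sequence and from 1228 to 1373 of that of SMARCA2, counted from the A of the start codon. Capitals mark the 27 of 146 bases at which the paralogs differ.
SMARCA4: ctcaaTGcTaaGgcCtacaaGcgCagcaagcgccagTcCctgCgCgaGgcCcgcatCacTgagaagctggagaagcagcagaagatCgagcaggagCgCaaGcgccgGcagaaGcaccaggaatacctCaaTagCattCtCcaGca
SMARCA2: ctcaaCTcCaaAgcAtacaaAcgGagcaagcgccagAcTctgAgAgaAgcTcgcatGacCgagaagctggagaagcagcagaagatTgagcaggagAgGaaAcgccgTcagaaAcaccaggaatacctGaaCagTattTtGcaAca
By definition a longest shared run is flanked by differing bases, so its ends add nothing on whether reads can be told apart. Elsewhere in the genome, no copy of at least 100 bases and 90% identity was found for either coding sequence. No source used here gives the read length, and sharing of reads between the paralogs was not tested.

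Of the 10 subunits, 5 had a mean above FPKM 30, namely ARID1A, SMARCA4, ARID1B, SMARCC1 and SMARCD1, and the same 5 were above it in each library. FPKM above 30 is the level given in the publication for its list of potential LRPPRC-binding RNAs. For binding it also used the RIP signal over input and PCR, which were not examined here. Of the background genes, 1418 (13.6%) were above FPKM 30. The members were not drawn at random from these genes, and no test of the share was made. The median of the 10 was 35.9 FPKM, against 6.81 FPKM over background genes. The subunits ranged over 16.1 times, from ARID1A at 72.0 FPKM to SMARCE1 at 4.47 FPKM. All 10 passed the minimum of FPKM 1. No member lay close above the threshold, since SMARCD1 had 44.8 FPKM, and the nearest below it was PBRM1 at 27.0 FPKM. At FPKM 20 the count was 7, against 21.1% of background genes, and at FPKM 50 it was 4, against 6.89%.

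The scaffold subunits fell into high and low ones. SMARCC1 (BAF155) had 56.6 and 59.5 FPKM, a mean of 58.0 ± 2.09 (SD, n = 2), and its paralog SMARCC2 (BAF170) had 23.0 and 23.3 FPKM, a mean of 23.1 ± 0.244 (SD, n = 2). The ratio of SMARCC1 to SMARCC2 was 2.46 in replicate 1 and 2.55 in replicate 2, and the libraries did not overlap. Both proteins form the dimer on which the core is built, and SMARCC1 mRNA made up 71.1% and 71.8% of the FPKM of the pair. Their coding sequences shared 70.8% of 3197 aligned bases, with a longest common run of 23 bases. SMARCD1 (BAF60A), which links the complex to transcription factors, had 44.7 and 44.9 FPKM, the smallest coefficient of variation of the 10 (0.194%). Its paralog SMARCD2 had 30.6 and 30.8 FPKM. The third paralog, SMARCD3, had 0.969 and 0.963 FPKM. The order of the SMARCD genes was the same in both libraries, and SMARCD1 was 1.46 times SMARCD2 in each.

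SMARCB1 and SMARCE1, core subunits of canonical BAF and PBAF without a paralog in the complex, were well below the other scaffold mRNAs. SMARCB1 (SNF5, INI1), which contacts the nucleosome acidic patch, had 8.64 and 9.37 FPKM, a mean of 9.004 ± 0.514 (SD, n = 2). SMARCE1 (BAF57), an HMG-box protein, had 4.43 and 4.50 FPKM, a mean of 4.47 ± 0.0473 (SD, n = 2), the lowest of the 10. Both values of each gene were below every value of SMARCC1, SMARCC2 and SMARCD1. Of background genes, 58.4% had a lower mean than SMARCB1 and 37.1% had a lower mean than SMARCE1.

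Copies of the gene and alternative transcript models were looked up for these low subunits. SMARCE1, on the minus strand of chromosome 17 from 40624962 to 40648654, was the only one of the 10 with copies of its coding sequence elsewhere, 6 processed pseudogenes of 90.3% to 94.7% identity that together covered 100% of it. The start of its coding sequence, bases 1 to 120, is set beside SMARCE1P5, the closest copy, on chromosome 13 from 44594858 to 44594977, to show how alike they are. Capitals mark the 4 bases that differ.
SMARCE1: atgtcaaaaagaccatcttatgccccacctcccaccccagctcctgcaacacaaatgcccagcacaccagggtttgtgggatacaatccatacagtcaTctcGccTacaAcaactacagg
SMARCE1P5: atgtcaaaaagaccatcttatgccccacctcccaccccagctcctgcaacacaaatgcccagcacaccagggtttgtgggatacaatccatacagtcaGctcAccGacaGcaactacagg
The first capital came only after a long stretch in which the gene and the copy are identical, so reads from that stretch could be placed on either. No source used here says how such reads were counted, and the SMARCE1 value is uncertain for this reason. Only the coding sequence was searched for copies, which without the stop codon is 1233 of the 5150 bases of the canonical transcript. SMARCE1 also shares 974 exonic bases with another protein-coding gene on the same strand, ENSG00000264058. SMARCB1, on the plus strand of chromosome 22 from 23786931 to 23838009, has 8 protein-coding transcripts of 242 to 5191 bases in GENCODE 44. The longest is the canonical one, and 52.9% of it overlaps exons of DERL3 on the opposite strand, which had 1.88 and 1.72 FPKM. How the choice of transcript model moves the SMARCB1 value was not tested.

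The ARID1 subunits, the largest of canonical BAF, stood at ranks 1 and 3 of the 10. ARID1A (BAF250A), a DNA-binding subunit often mutated in cancer, had 70.0 and 74.0 FPKM, a mean of 72.0 ± 2.85 (SD, n = 2). ARID1B, its paralog and alternative in the complex, had 59.4 and 64.7 FPKM, a mean of 62.0 ± 3.79 (SD, n = 2). The libraries did not overlap, and the log2 ratio of ARID1A to ARID1B was 0.22 ± 0.03 (SD, n = 2). This order rests on the division by length, because with FPKM multiplied by the length of the canonical transcripts, 8595 and 10310 bases, the log2 ratio was -0.05. ARID1B also had the largest coefficient of variation of the 10, 6.12%. ARID1A is on chromosome 1 from 26693236 to 26782104 and ARID1B on chromosome 6 from 156776020 to 157210779, both on the plus strand.

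PBRM1 (BAF180), the subunit with several bromodomains that defines PBAF, had 27.8 and 26.2 FPKM, a mean of 27.0 ± 1.13 (SD, n = 2). It was the only member that was higher in replicate 1. Of the other PBAF subunits, ARID2 (BAF200), at 88.9 and 87.5 FPKM, and PHF10 (BAF45A), at 68.8 and 68.2 FPKM, were above PBRM1 in both libraries. BRD7, a bromodomain subunit, had 24.4 and 26.3 FPKM, which overlapped PBRM1. PBRM1 thus made up 13.3% and 12.6% of the summed FPKM of these 4 genes, and ARID2 made up 42.3% and 42.0%. Of the ncBAF subunits, only the genes grouped under that form alone are compared here, and their levels were lower. BRD9, its bromodomain subunit, had 17.9 and 15.8 FPKM, BICRAL had 13.5 and 13.9 FPKM, and BICRA had 6.23 and 6.92 FPKM. Each value of PBRM1 was above those of BRD9, BICRAL and BICRA.

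The rest of the complex was read from a list of 18 other SWI/SNF genes, of which 17 had a row. Of these, 5 had a mean above FPKM 30, against 13.6% of background genes, and their median was 13.7 FPKM. The 5 were ARID2, PHF10, ACTL6A, SS18 and SMARCD2. SMARCD2, at 30.6 and 30.8 FPKM, and SS18 lay close above the threshold. Paralogs differed widely here too. ACTL6A (BAF53A), the actin-like subunit of dividing cells, had 37.9 and 37.5 FPKM, and ACTL6B, its neuronal counterpart, had no row. SS18, the partner in the fusion protein of synovial sarcoma, had 32.2 and 30.5 FPKM, and SS18L1 had 3.64 and 3.60 FPKM. DPF2, a PHD-finger subunit of canonical BAF, had 9.15 and 9.29 FPKM, DPF1 had 4.83 and 4.85 FPKM, and DPF3 had 0.187 and 0.246 FPKM. BCL7B had 19.4 and 18.2 FPKM, above BCL7A at 5.75 and 6.75 FPKM and BCL7C at 1.99 and 1.93 FPKM. DPF3 and SMARCD3 were the only genes of the list with a mean below FPKM 1.

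The order of the 10 subunits by mean FPKM was ARID1A, SMARCA4, ARID1B, SMARCC1, SMARCD1, PBRM1, SMARCC2, SMARCB1, SMARCA2 and SMARCE1, and it was the same in each library alone. Of the 9 neighbouring pairs in this order, 1 overlapped between libraries, ARID1B with 59.4 and 64.7 FPKM and SMARCC1 with 56.6 and 59.5 FPKM. SMARCA4 and ARID1B came close without overlap, at 65.6 FPKM for the lower value of SMARCA4 and 64.7 FPKM for the higher value of ARID1B. The largest step was from SMARCC2 to SMARCB1, a ratio of 2.57. Both values of a gene come from the same 2 libraries, and 2 values against 2 cannot give an exact two-sided permutation p below 0.333, so no test between genes was made.

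The libraries differed little for these mRNAs. The FPKM of each subunit differed by at most 1.09 times between libraries, and 0 of 10 differed by more than 1.5 times, against 159 (1.52%) of background genes. The median absolute log2 ratio of FPKM + 1 between libraries was 0.06 for the 10 and 0.05 for background genes. The direction was shared by most, since 9 of 10 were higher in replicate 2, against 43.8% of background genes. Some of these differences were very small, such as 1.003 times for SMARCD1 and 1.006 times for SMARCA4. The sum over the 10 was 367 FPKM in replicate 1 and 380 FPKM in replicate 2, or 0.187% and 0.195% of all FPKM in the library. The sum over 17 other SWI/SNF genes went the other way, at 366 and 363 FPKM. For 11 genes of the ISWI remodelers, another family, it was 618 and 645 FPKM. With 2 libraries these differences have no test.

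Most of the 10 subunits had long canonical transcripts. Canonical transcripts in GENCODE 44 ran from 3283 bases for SMARCD1 to 10310 for ARID1B, and 9 of 10 were of 4724 bases or more, in the longest of 3 equal groups of the 9794 background genes with a matched model. Genes of that group had a median of 8.67 FPKM, and 15.7% of them were above FPKM 30. Across the 10, Spearman's rho of length and mean FPKM was 0.52 and Pearson's r with log2 FPKM was 0.40, and without ARID1A and ARID1B, farthest from the median length, they were 0.19 and 0.04. Across 9786 background genes with a coding model rho was 0.12. Across the 10, rho was 0.65 for coding length, and 0.45 without SMARCB1 and SMARCE1. For the GC content of the coding sequence it was 0.61, and 0.64 without SMARCA4 and PBRM1. Not all traits gave a positive value. For the length of the 3' untranslated region rho was -0.32, and 0.05 without SMARCA4 and SMARCB1. For the number of exons it was 0.24, and -0.29 without SMARCB1 and SMARCE1. These values describe genes of the same libraries, which are not independent replicates. FPKM multiplied by canonical length in kb was 640 for ARID1B, 619 for ARID1A, 369 for SMARCC1 and 367 for SMARCA4. This product follows the share of fragments only if FPKM was computed with these lengths, which is not known here. SMARCB1, at 46.7, SMARCA2, at 40.6, and SMARCE1, at 23.0, were the lowest on this scale too.

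Other chromatin remodelers gave a scale for these levels. Against a median of 35.9 FPKM for the 10 subunits, 11 ISWI genes had a median of 35.5 FPKM, with 6 above FPKM 30. They were led by POLE3 (193.5 FPKM) and CHRAC1 (155 FPKM), small histone-fold proteins, and by BAZ1B (66.7 FPKM), with CECR2 lowest (1.57 FPKM). Of 20 CHD and NuRD genes, 7 were above FPKM 30, with a median of 19.8 FPKM, and MTA1 (78.5 FPKM), GATAD2A (69.9 FPKM) and RBBP7 (55.4 FPKM) were highest and MBD2 (4.50 FPKM) lowest. Of 23 INO80, SRCAP and TIP60-p400 genes, 3 were above it, RUVBL2 (90.3 FPKM), TRRAP (66.1 FPKM) and SRCAP (32.7 FPKM). Their median was 4.93 FPKM, and INO80C was lowest (0.995 FPKM). Polycomb repressive complex 2, which methylates histone H3 and opposes SWI/SNF at many genes, had 1 of 9 genes above it, SUZ12 (34.3 FPKM), followed by EZH2 (29.8 FPKM) and PHF19 (20.5 FPKM), with EED lowest (3.30 FPKM) and a median of 11.1 FPKM. These shares stand beside 13.6% of background genes, and no difference between the lists was tested.

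Markers of the cell line were read in the same libraries. The epithelial keratins KRT8 (337 FPKM), KRT18 (51.1 FPKM) and KRT7 (30.5 FPKM) had means above FPKM 30. KRT7 was at the threshold, with 31.5 FPKM in replicate 1 and 29.6 FPKM in replicate 2. KRT19 had 12.1 FPKM, whereas CDH1 (1.33 FPKM) and EPCAM (0.43 FPKM) were low. Of 5 alveolar type II markers, 4 had a row, led by ABCA3 at 9.29 FPKM, and 3 were below FPKM 1. All 3 leukocyte and all 4 endothelial markers with a row, and 4 of 5 fibroblast markers, were below FPKM 1. LRPPRC itself had 184 and 176 FPKM.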

How the data were processed

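RIP-seq libraries were made from RNA co-precipitated from A549 lysates with 2 μg of antibody. Per the labels and the methods of the publication, adapters were trimmed (cutadapt 1.18), and reads were mapped to GRCh38 (HISAT2 2.1.0) and assigned to genes of an Ensembl annotation (StringTie 1.3.3b). The authors deposited FPKM values per gene for each library, without pooling. The publication names a stranded total RNA library kit. The strand setting used in mapping and assignment, and the treatment of reads with several placements, are not given in the sources used here.

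FPKM is not a count, and depth is unknown. Whole reads were not recovered, since of 3255 low genes (mean under FPKM 0.3) no more than 47 (1.44%) fell in a single interval of 0.02 in the log2 ratio between libraries, and no interval that needs depth is given.

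The subunits and gene lists were chosen with earlier results of these data known. Means and SD over 2 libraries, ranks, ratios within a library and counts above FPKM 30 were computed. Background genes were those with a name that reached FPKM 1 in each library, and a repeated name was represented by its higher row. The pseudocount was 1 for log2 ratios between libraries. None was used for differences in times between libraries or for ratios between genes. Genes named in the text are the 10 subunits, the other SWI/SNF genes, the highest 3 and the lowest of each remodeler list, LRPPRC and epithelial markers. Alternatives were thresholds of 20 and 50, single libraries, other minima, pseudocounts of 0.1 and 1, TPM and multiplication by transcript length. Transcript models and sequences came from GENCODE 44 on GRCh38, a later annotation than the authors', and copies were sought with blastn 2.17.0 (at least 100 bases and 90% identity). Functions were tested on simulated data. Scripts ran in Python 3.11.15 with biopython 1.88, matplotlib 3.10.9, scipy 1.17.1, pandas 2.3.3 and numpy 2.4.6.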

Additional observations from a re-analysis of the deposited data

How the results depend on the processing

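The count of 5 subunits above FPKM 30 held with either library alone and with both or either library above it, and it was 7 at FPKM 20 and 4 at FPKM 50. The order of the 10 was kept with either library alone. The share of genes above FPKM 30 depends on which genes are counted, and was 8.46% of all named genes, 10.6% with a minimum of FPKM 0.1 and 23.3% with a minimum of FPKM 5, against 13.6% here. With a single library it was 13.6% or 13.7%. Of the 17 other SWI/SNF genes, 2 were above FPKM 50, against 6.89% of background genes, and 5 were above FPKM 30, against 13.6%. The median of the 10 was 183 on the TPM scale and 182 with FPKM multiplied by length in kb, which are changes of unit. Multiplication by the length of the canonical transcript turned the log2 ratio of ARID1A to ARID1B to -0.047. It gave 3.18 for SMARCA4 to SMARCA2, 1.65 for SMARCC1 to SMARCC2 and 0.96 for SMARCD1 to SMARCD2, and 4 of 10 subunits kept their rank. A pseudocount of 1 gave 3.05 for SMARCA4 to SMARCA2 and 0.53 for SMARCD1 to SMARCD2. No paired analysis was possible because both libraries belong to a single condition. As the depth is not known, the precision of low values such as those of DPF3 cannot be stated.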

Other observations

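Among the other remodelers, 3 genes differed by more than 1.5 times between libraries and were chosen after their values were seen. CDK2AP1, a NuRD-associated protein, had 6.83 FPKM in replicate 1 and 3.09 FPKM in replicate 2. INO80B had 0.719 and 1.61 FPKM, and YEATS4, a reader of histone acetylation, had 2.24 and 1.47 FPKM. They were 1 of 20 CHD and NuRD genes and 2 of 23 INO80, SRCAP and TIP60-p400 genes. INO80B was below FPKM 1 in replicate 1 and is not a background gene. Among the 27 SWI/SNF genes with a value, 0 differed by that much, against 1.52% of background genes. With a share that low, 0 of 27 does not set the SWI/SNF genes apart.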
